A study of Homo sapiens with 6 samples.

Results

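The genes described here are 3 aldo-keto reductases of the AKR1C family (AKR1C1, AKR1C2 and AKR1C3) and 7 antioxidant genes that are textbook targets of the transcription factor NRF2 (GCLC, GCLM, NQO1, TXNRD1, SRXN1, SLC7A11 and HMOX1). The 10 names were chosen by measured values, since the set was put together with the differences between the groups in these same libraries known, AKR1C2 among them. The values of the members in this comparison are therefore a description. No p-value of a member is given, and where members are counted as called in the fit over all genes, that count was set by the choice and tests nothing. Of the 10 genes, 9 were found by their Ensembl identifiers among the 10487 genes of the expression table, and AKR1C3 was not analysed here.

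MDAMB468 is an established line of human breast cancer cells of the triple negative class. The IGFBP2 overexpression cells were a stable MDAMB468 line that carried a catalytically inactive Cas9 fused to a transcriptional activator (dCas9-VHP), delivered by lentivirus and selected with blasticidin, and a guide RNA to IGFBP2, delivered by a further lentivirus and followed by a sort on the guide's fluorescent marker. The genotype of the control MDAMB468 cells is labelled WT, and whether they carried the activator, a guide without this target or the same selection and sort is not given in the sources used here. The labels state no treatment for either group, and RNA from 3 biological replicates a group was sequenced from the 3′ ends of transcripts. Nothing in these sources says whether the overexpression replicates were separate transductions, so the line, its selection and its sort cannot be told apart from IGFBP2 itself in any difference between the groups.

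NRF2, encoded by NFE2L2, is held at a low level by KEAP1, which passes it to a CUL3 ubiquitin ligase. Electrophiles and oxidants modify KEAP1, and NRF2 then accumulates, pairs with small MAF proteins and binds antioxidant response elements, whose core is usually written TGACNNNGC, near genes for glutathione synthesis, quinone reduction, the thioredoxin system and heme breakdown. AKR1C enzymes reduce ketosteroids, prostaglandins and reactive carbonyls with NADPH, and AKR1C1 and AKR1C2 are among the genes most often used as readouts of NRF2 in human epithelial cells.

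AKR1C1 and AKR1C2 lie next to each other on chromosome 10 of GRCh38, and the sequences before their starts are shown because they are nearly identical. In GENCODE 44, AKR1C1 (ENSG00000187134) runs from 4963253 to 4983283 on the plus strand and AKR1C2 (ENSG00000151632) from 4987775 to 5018031 on the minus strand. Their coding sequences, of 969 bases each, were 98.0% identical, against 91.7% between AKR1C1 and AKR1C3 and 91.2% between AKR1C2 and AKR1C3. RefSeq (GRCh38.p14) gave windows from 250 bases before to 50 bases after the start for 8 of the 10 genes, all but SLC7A11 and HMOX1. The 250 bases before the RefSeq start of AKR1C1 (chr10:4963165-4963414, plus strand) and of AKR1C2 (chr10:5003858-5004107, minus strand) shared an identical stretch of 245 bases, which is in capitals below, read 5′ to 3′ along each gene.
AKR1C1: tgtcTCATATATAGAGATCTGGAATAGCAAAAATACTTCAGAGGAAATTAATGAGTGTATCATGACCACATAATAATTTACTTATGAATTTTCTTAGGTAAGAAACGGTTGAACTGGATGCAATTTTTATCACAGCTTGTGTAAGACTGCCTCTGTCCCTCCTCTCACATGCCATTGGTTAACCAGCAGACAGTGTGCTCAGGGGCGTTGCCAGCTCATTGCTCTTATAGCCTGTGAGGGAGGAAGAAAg
AKR1C2: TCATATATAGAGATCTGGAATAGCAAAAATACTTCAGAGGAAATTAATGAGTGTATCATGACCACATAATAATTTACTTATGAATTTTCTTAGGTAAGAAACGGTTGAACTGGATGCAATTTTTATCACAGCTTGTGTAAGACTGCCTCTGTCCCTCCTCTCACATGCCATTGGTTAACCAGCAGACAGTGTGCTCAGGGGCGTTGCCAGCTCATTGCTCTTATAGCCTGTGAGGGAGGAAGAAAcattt
Between AKR1C1 and the same interval of AKR1C3, at its 2 RefSeq starts, the identity was 72.4% and 69.9%.

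The core TGACNNNGC was searched on both strands of the members' windows. Of the 8 members with an entry, 2 held it between 250 bases before and 50 bases after a RefSeq start (GCLM and TXNRD1). Counted by window, as some members have 2 starts, these were 3 of 10, against 13.3% of all 35116 RefSeq windows. Over the 1000 bases before the start, 4 of the 8 held it (GCLC, GCLM, NQO1 and TXNRD1). Counted by window these were 5 of 10, against 31.9% of all windows. AKR1C1, AKR1C2, AKR1C3 and SRXN1 had no match, which says only that these letters were not in those windows. The 30 bases around 4 of the matches are shown as examples of the core in the antioxidant genes, with the match in capitals, read 5′ to 3′ along each gene. A match on the other strand appears as its reverse complement, and a match is a description of the letters and not a measured binding site.
GCLM, chr1:93909445-93909474, minus strand, 34 bases before the start: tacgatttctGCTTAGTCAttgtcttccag
NQO1, chr16:69726996-69727025, minus strand, 455 bases before the start: gcagtcacagTGACTCAGCagaatctgagc
TXNRD1, chr12:104286920-104286949, plus strand, 102 bases before a start: gtggatttctGCTTTGTCAttctgactctg
GCLC, chr6:53545952-53545981, minus strand, 870 bases before the start: acaggtcattGCTCTGTCAacacatattta

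The 6 libraries held 2497353 to 4579587 reads on the listed genes, and 1 read was worth 0.222 to 0.404 CPM, the count scaled to library size. Mitochondrial genes took 7.20 to 8.55% of the CPM. IGFBP2 itself was at 93.5, 87.3 and 136 CPM in control replicates 1, 2 and 3 and at 566, 1176 and 498 CPM in replicates 1, 2 and 3 of the IGFBP2 overexpression cells. Of 12 epithelial markers, 11 were in the table, among them the basal keratins KRT5, KRT14 and KRT17 and the luminal or general epithelial genes KRT18, KRT19, EPCAM, CDH1 and CD24. Their summed level was 4861 to 6018 CPM in control and 5279 to 6589 CPM in IGFBP2 overexpression libraries, and their log2 differences ran from -0.65 (CD24) to 1.65 (KRT6B), none of them called. The estrogen and progesterone receptor genes ESR1 and PGR and all 5 leukocyte markers were not among the genes analysed here, and of 6 fibroblast markers only COL1A1 was, at 12.2 to 27.5 CPM in control and 9.36 to 15.8 CPM in IGFBP2 overexpression libraries.

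The AKR1C genes had the largest differences of the 9 members. AKR1C1, which inactivates progesterone by reducing it, was at 4.0, 12.0 and 11.3 CPM in control replicates 1, 2 and 3 (18, 43 and 28 reads) and at 76.8, 64.9 and 88.0 CPM in IGFBP2 overexpression replicates 1, 2 and 3 (197, 201 and 268 reads). The overexpression libraries were all well above the controls and close to one another. The mean was 9.09 ± 4.43 CPM in control and 76.6 ± 11.6 CPM in IGFBP2 overexpression cells (n = 3 a group, SD), 8.42-fold higher, and the difference between the group means of log2(CPM + 1), given from here on as the log2 fold change, was 3.05 with a standard error (SE) of 0.35. The pseudocount of 1 understates the fold of genes at this low control level. In these bulk libraries, more cells with AKR1C RNA and more AKR1C RNA in each cell cannot be told apart.

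AKR1C2, which reduces dihydrotestosterone to a weak androgen, was at 10.7, 24.8 and 10.9 CPM in control replicates 1, 2 and 3 (48, 89 and 27 reads) and at 101.4, 117 and 352 CPM in IGFBP2 overexpression replicates 1, 2 and 3 (260, 362 and 1072 reads). Replicate 3 of the overexpression cells stood well above the other 2, and no overexpression library overlapped the controls. The mean was 15.4 ± 8.07 CPM in control and 190 ± 141 CPM in overexpression cells (n = 3, SD), or 12.3-fold higher (log2 fold change 3.41, SE 0.48). Among all 10487 genes, AKR1C2 had the fifth highest log2 fold change and AKR1C1 the seventh.

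The split between the AKR1C pair did not separate the groups. AKR1C2 made up 72.7, 67.4 and 49.1% of the summed AKR1C1 and AKR1C2 CPM in control replicates 1, 2 and 3, and 56.9, 64.3 and 80% in IGFBP2 overexpression replicates 1, 2 and 3. The shares overlapped, with the lowest in a control and the highest in an overexpression library. The sum does not depend on how the counted reads were divided between the genes. Reads left out of the count because they fit both genes would be missing from the sum as well, which was not tested. The sum was 14.7, 36.7 and 22.2 CPM in control and 178, 182 and 440 CPM in overexpression replicates 1, 2 and 3 (log2 fold change 3.35, SE 0.41). Most of the higher sum in overexpression replicate 3 was AKR1C2.

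**Figure D1:**
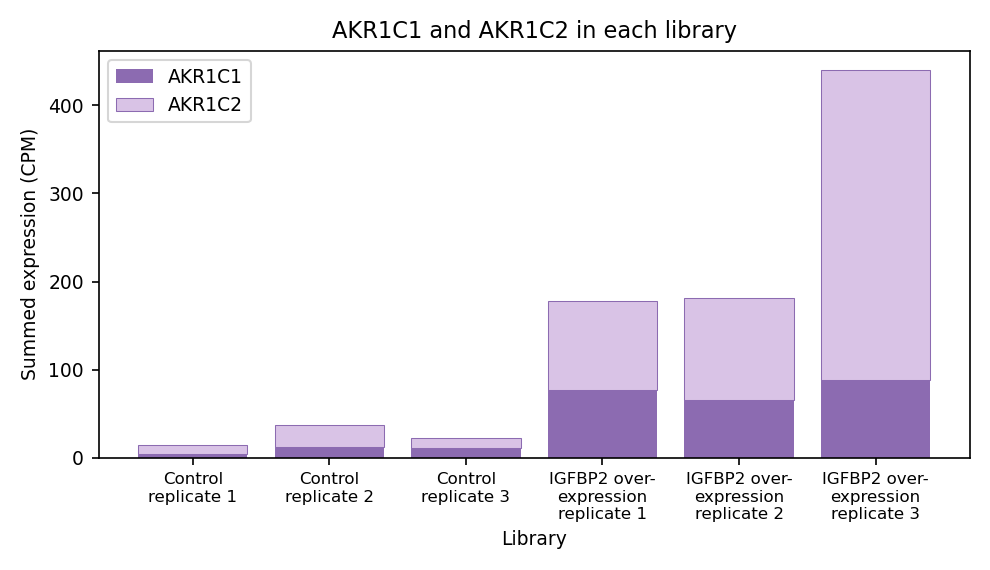
Bars show the CPM of AKR1C1 (dark) with that of AKR1C2 stacked on it (light) in each of the 6 libraries, on an axis that starts at 0. The 3 control bars reach 14.7 to 36.7 CPM and the 3 IGFBP2 overexpression bars 178 to 440 CPM, the tallest in replicate 3.

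How far reads of the pair could be told apart was examined at the 3′ ends, where these libraries place their reads. Unlike the coding sequences, the last 500 bases of the canonical AKR1C1 and AKR1C2 transcripts were 49.7% identical, with no identical stretch longer than 7 bases in their alignment. In the last 500 bases of the canonical AKR1C1 transcript, 0% of the stretches of 100 bases, the length of a read, occurred exactly in another gene, and over the 3 annotated ends of AKR1C1 the share was 0 to 18.7%. For AKR1C2 it was 35.4%, all in AKR1C1 transcripts outside that canonical end, and 2.24 to 46.4% over its 4 ends. SRXN1 overlaps another gene on its strand (ENSG00000270299), and 97.3% of its stretches lay in that gene. How the counting treated reads that fit both genes of such a pair was not tested. Which annotated ends these cells use was not tested either. The levels of AKR1C2 and SRXN1 are therefore less certain, and so is that of AKR1C1, whose transcripts hold the shared AKR1C2 stretches. For the canonical ends of the other 6 members in the table the share was 0%, though over the 6 annotated ends of GCLC it reached 84.8%.

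GCLC and GCLM encode the catalytic and modifier subunits of glutamate-cysteine ligase, the rate-limiting enzyme of glutathione synthesis. GCLC was at 16.6, 22.8 and 10.5 CPM in control replicates 1, 2 and 3 and at 30.02, 30.7 and 38.4 CPM in IGFBP2 overexpression replicates 1, 2 and 3 (log2 fold change 1.00, SE 0.27). GCLM was at 76.4, 66.8 and 51.4 CPM in control and at 111, 120 and 120 CPM in overexpression replicates 1, 2 and 3 (log2 fold change 0.86, SE 0.20). For both subunits every overexpression library was above every control. The mean was 1.98 times the control mean for GCLC and 1.80 times for GCLM.

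SLC7A11, the subunit of the exchanger that brings in cystine for glutathione, was the only member with a negative difference. It was at 16.6, 24.5 and 18.6 CPM in control replicates 1, 2 and 3 and at 8.19, 9.04 and 26.0 CPM in IGFBP2 overexpression replicates 1, 2 and 3. Overexpression replicates 1 and 2 were below every control and replicate 3 above every control, so the groups overlapped. The log2 fold change was -0.61 (standard error 0.39).

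NQO1, which reduces quinones to hydroquinones, had the highest mean level of the members in both groups. It was at 158, 195 and 101.5 CPM in control replicates 1, 2 and 3 and at 250, 234 and 249 CPM in overexpression replicates 1, 2 and 3. The control libraries were spread and the overexpression libraries were close together above them. The mean was 151 ± 47.1 CPM in control and 244 ± 8.96 CPM in overexpression cells (n = 3 a group, SD), and the log2 fold change was 0.74 (SE 0.25).

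The members of the thioredoxin system overlapped between the groups. TXNRD1, the cytosolic thioredoxin reductase, was at 33.1, 21.1 and 20.6 CPM in control and at 37.8, 52.9 and 27.6 CPM in IGFBP2 overexpression replicates 1, 2 and 3 (log2 fold change 0.63, SE 0.28). SRXN1, sulfiredoxin, which restores over-oxidised peroxiredoxins, was at 21.8, 20.0 and 10.1 CPM in control and at 25.3, 17.8 and 30.5 CPM in overexpression replicates 1, 2 and 3 (log2 fold change 0.52, SE 0.31). For TXNRD1 it was overexpression replicate 3, and for SRXN1 replicate 2, that lay among the controls.

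HMOX1, heme oxygenase, splits heme into biliverdin, iron and carbon monoxide and is under repression by BACH1 as well as activation by NRF2. It was at 31.7, 42.8 and 21.0 CPM in control replicates 1, 2 and 3 and at 62.8, 110 and 164 CPM in overexpression replicates 1, 2 and 3. The groups did not overlap, and the overexpression libraries were widely spread. The mean went from 31.9 ± 10.9 to 112 ± 50.6 CPM (n = 3, SD), and the log2 fold change of 1.74 (SE 0.37) was the third of the 9.

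**Figure D2:**
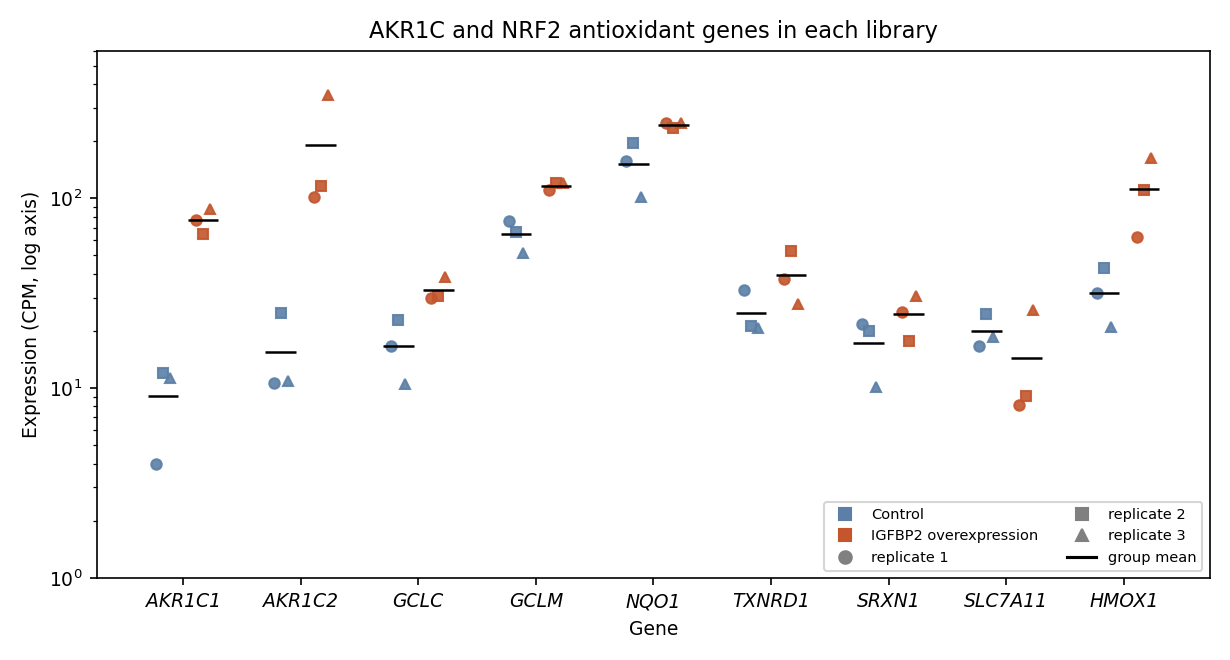
Each point is 1 library's expression in CPM, on a log axis, for the 9 members in the table, with control in blue, IGFBP2 overexpression in orange, a symbol for each replicate number and a black line at each group mean. The groups are apart for AKR1C1, AKR1C2, GCLC, GCLM, NQO1 and HMOX1 and overlap for TXNRD1, SRXN1 and SLC7A11.

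As these libraries read the ends of transcripts and not their length, CPM were compared between genes without a length scale. In control cells the order of the mean levels was NQO1, GCLM (64.8 ± 12.6 CPM), HMOX1, TXNRD1 (24.9 ± 7.05 CPM), SLC7A11 (19.9 ± 4.07 CPM), SRXN1 (17.3 ± 6.28 CPM), GCLC (16.7 ± 6.15 CPM), AKR1C2 and AKR1C1 (SD, n = 3). The control libraries of NQO1 and GCLM and those of GCLM and HMOX1 did not overlap, and every later pair of neighbours did. In IGFBP2 overexpression cells the order was NQO1, AKR1C2, GCLM (117 ± 5.36 CPM), HMOX1, AKR1C1, TXNRD1 (39.4 ± 12.8 CPM), GCLC (33.04 ± 4.68 CPM), SRXN1 (24.5 ± 6.44 CPM) and SLC7A11 (14.4 ± 10.02 CPM) (SD, n = 3). There the only neighbours whose libraries did not overlap were AKR1C1 and TXNRD1. The AKR1C pair was last in control cells, and in overexpression cells AKR1C2 was the second and AKR1C1 the fifth.

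Of the 9 members, 6 had every IGFBP2 overexpression library above every control, against 9.43% of all 10487 genes, and 0 had every overexpression library below every control, against 8.61%. In the limma fit over all genes, 2 members, AKR1C1 and AKR1C2, were among the genes called higher (adjusted p under 0.05), against 0.429% of all genes called higher and 0.2% called lower. Nothing is read from these counts, because the members were chosen from this comparison. As a description only, AKR1C1 was not called without overexpression replicate 1. AKR1C2 was not called without control replicate 1, control replicate 3 or overexpression replicate 2. This left 1 member called in each of these fits. Among all genes, 66 were called with all libraries and 12 without overexpression replicate 1. The number was 79 without control replicate 1, 17 without control replicate 3 and 13 without overexpression replicate 2. The median log2 fold change of the 9 members was 0.86, with 8 positive, where that of all genes was 9.82e-05.

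The members did not share an order of libraries in every case, but some libraries recurred. IGFBP2 overexpression replicate 3 was the highest of its group for 6 of the 9 members, replicate 2 for 2 and replicate 1 for 1. Control replicate 3, which had the fewest reads, was the lowest control for 6 members, and control replicate 2 was the highest control for 6. The part of depth in this order was not tested. With each library left out in turn, no member's log2 fold change changed sign. It stayed between 2.61 and 3.29 for AKR1C1, 2.84 and 3.78 for AKR1C2, 1.41 and 2.10 for HMOX1 and 0.70 and 0.98 for GCLM, and it was 0.72 to 1.25 for GCLC. Single libraries moved the other members by more than 1.5 times. Without control replicate 3 it was 0.47 for NQO1 and 0.19 for SRXN1, and without overexpression replicate 2 it was 0.39 for TXNRD1. For SLC7A11 it was -0.33, -0.39 and -1.11 without overexpression replicates 1, 2 and 3.

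**Figure D3:**
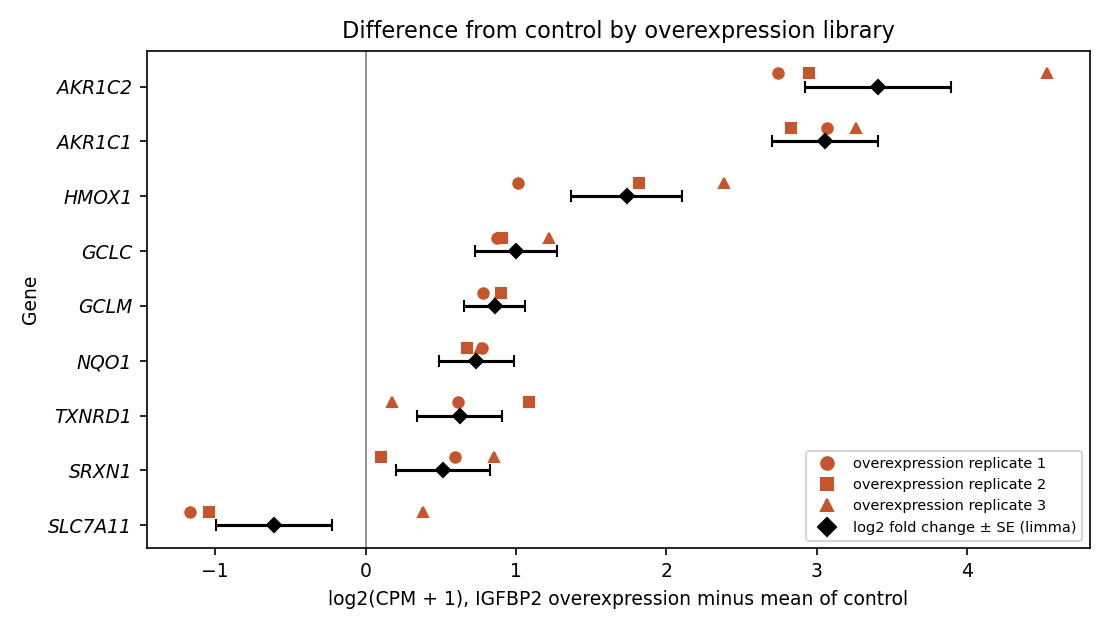
For each of the 9 members, orange symbols show the log2(CPM + 1) of each IGFBP2 overexpression library minus the mean of the 3 controls, and the black diamond and bar show the log2 fold change with its standard error from limma. AKR1C2 and AKR1C1 lie furthest to the right at 3.41 and 3.05, and SLC7A11 is alone to the left of 0 at -0.61, with its replicate 3 on the other side.

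NFE2L2 and KEAP1, the factor and its inhibitor, did not pass the test at the RNA level. NFE2L2 was at 70.4, 83.4 and 68.7 CPM in control and at 57.7, 86.5 and 44.7 CPM in overexpression replicates 1, 2 and 3, with overlap between the groups (log2 fold change -0.28, SE 0.25, adjusted p = 0.705, limma). KEAP1 was at 132, 127 and 136 CPM in control and at 119, 121 and 105 CPM in overexpression replicates 1, 2 and 3, with all overexpression libraries slightly below the controls (log2 fold change -0.20, SE 0.17, adjusted p = 0.693, limma). Without overexpression replicate 2 the log2 fold change of NFE2L2 was -0.53, and without replicate 3 it was -0.064. The activity of NRF2 turns on the stability of its protein, which was not measured. The 14 NRF2 regulators and partners in the table, of 16 listed, had log2 fold changes from -0.49 to 1.28 with a median of -0.06. All overexpression libraries were above the controls for 3 of the 14 and below for 3. These are 21.4% each, against 9.43% and 8.61% of all genes. In the limma fit 5 of the 14, or 35.7%, had an unadjusted p under 0.05, against 13.01% of all genes.

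The regulator list held the only other genes of the pathway that passed. TRIM16, a ubiquitin ligase that binds the NRF2 complex and is itself an NRF2-induced gene, rose from 27.7, 33.7 and 27.1 CPM in control to 63.2, 81.3 and 74.2 CPM in IGFBP2 overexpression replicates 1, 2 and 3 (log2 fold change 1.28, SE 0.19, adjusted p = 0.0311, limma). OSGIN1, an oxidative stress-induced growth inhibitor that is known more as an NRF2 target than as a regulator, rose from 4.44, 6.12 and 4.45 CPM to 16.0, 13.6 and 11.2 CPM (log2 fold change 1.28, SE 0.21, adjusted p = 0.0424, limma). Neither gene overlapped between the groups. Both are singled out from the list after their values were seen. Both calls were lost without control replicate 1, control replicate 3 or any 1 of the overexpression replicates. In these fits the log2 fold change was 1.19 to 1.37 for TRIM16 and 1.16 to 1.40 for OSGIN1. Among all genes, 66 were called with all libraries, 79 without control replicate 1 and 17 without control replicate 3. Without overexpression replicates 1, 2 and 3 in turn, the number was 12, 13 and 50.

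Across the other lists of the pathway, 119 of 167 listed genes were in the table, the regulators included. All these lists were chosen with earlier results of these data known. The shares given for them, here and list by list, are therefore a description and test nothing. In the limma fit 2 of the 119 were called, both higher, against the 0.429% of all genes called higher. At an unadjusted p under 0.05 there were 24, or 20.2%, against 13.01% of all genes. Every overexpression library was above every control for 24 of the 119 and below for 11, or 20.2% and 9.24%, against 9.43% and 8.61% of all genes. The median log2 fold change was 0.05. With limma voom on the recovered reads, TRIM16, EPHX1 and FTH1 were called higher and PTGES lower, and OSGIN1 was not called.

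The list of quinone, carbonyl and conjugating enzymes and exporters had the highest median of the lists, 0.38 over 20 genes. Of these, 7 had every overexpression library above every control, 0 had every one below, none was called, and 6 had an unadjusted p under 0.05. These are 35% above, 0% below and 30% under that p, against 9.43%, 8.61% and 13.01% of all genes. EPHX1, the microsomal epoxide hydrolase, was at 21.3, 31.2 and 29.5 CPM in control and at 50.3, 68.1 and 50.9 CPM in IGFBP2 overexpression replicates 1, 2 and 3 (log2 fold change 1.02, SE 0.22, adjusted p = 0.1, limma). ABCC3, an exporter of conjugated organic anions, went from 32.8 ± 10.9 to 60.4 ± 6.14 CPM (n = 3, SD, log2 fold change 0.90, adjusted p = 0.181, limma). For both genes the groups did not overlap.

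In the heme and iron list, 6 of 19 genes had every overexpression library above every control and 2 below, with a median log2 fold change of 0.21, none called and 5 at an unadjusted p under 0.05. These are 31.6% above, 10.5% below and 26.3% under that p, against the same shares of all genes. FTH1, the ferritin heavy chain that stores iron, was at 1477, 2278 and 1303 CPM in control and at 3581, 2586 and 2904 CPM in IGFBP2 overexpression replicates 1, 2 and 3 (log2 fold change 0.87, adjusted p = 0.199, limma). ABCB6, a porphyrin transporter, was at 4.22, 5.84 and 2.83 CPM in control and at 9.75, 12.6 and 9.20 CPM in overexpression replicates (log2 fold change 1.15, adjusted p = 0.1, limma). The groups did not overlap for either.

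The glutathione, thioredoxin and NADPH lists had medians near 0. The median log2 fold change was 0.01 over 24 genes of glutathione synthesis and use, 0.07 over 18 genes of the thioredoxin, peroxiredoxin and dismutase list and 0.15 over 10 genes of NADPH supply. None of these genes was called, and 3, 2 and 0 of them, in that order, had an unadjusted p under 0.05. These are 12.5%, 11.1% and 0% of the lists, against 13.01% of all genes. The genes with the smallest p were GGT1, which breaks down extracellular glutathione (log2 fold change -1.52), and the glutaredoxin GLRX (0.64), the peroxiredoxins PRDX1 (0.49) and PRDX5 (-0.56), and malic enzyme ME1 (0.52) and transketolase TKT (0.46), both NADPH or pentose phosphate enzymes. The adjusted p of these 6 genes ranged from 0.259 to 0.424 in the limma fit. GGT1 was at a low level, with 4.66, 5.01 and 14.6 CPM in control replicates 1, 2 and 3. In IGFBP2 overexpression replicates 1, 2 and 3 it was at 0.39, 3.87 and 2.30 CPM. Its log2 fold change ranged from -1.92 to -1.01 with single libraries left out, and was -2.08 and -0.81 with pseudocounts of 0.1 and 5. GGT1, like FTH1, has close copies in the genome that could share its reads.

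The genes of steroid and prostaglandin metabolism, the pathways of the AKR1C substrates, did not pass. Of 11 steroid and prostaglandin genes, 2 had every overexpression library below every control and 0 had every one above. These 2 were also the 2 with an unadjusted p under 0.05. The shares are 18.2% below, 0% above and 18.2% under that p, against 8.61%, 9.43% and 13.01% of all genes. PTGES, which makes prostaglandin E, was at 155, 164 and 273 CPM in control and at 82.3, 87.8 and 114 CPM in IGFBP2 overexpression replicates 1, 2 and 3 (log2 fold change -1.02, SE 0.26, adjusted p = 0.15, limma). HSD17B12, which acts mainly in fatty acid elongation, went from 93.7 ± 10.5 to 62.8 ± 12.7 CPM (n = 3, SD, log2 fold change -0.58, adjusted p = 0.292, limma). Of the other aldo-keto reductases, 3 of 10 were in the table and all overlapped between the groups, among them aldose reductase AKR1B1 (log2 fold change 0.96, adjusted p = 0.258, limma) and AKR7A2 (log2 fold change -0.34, adjusted p = 0.576, limma).

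**Figure D4:**
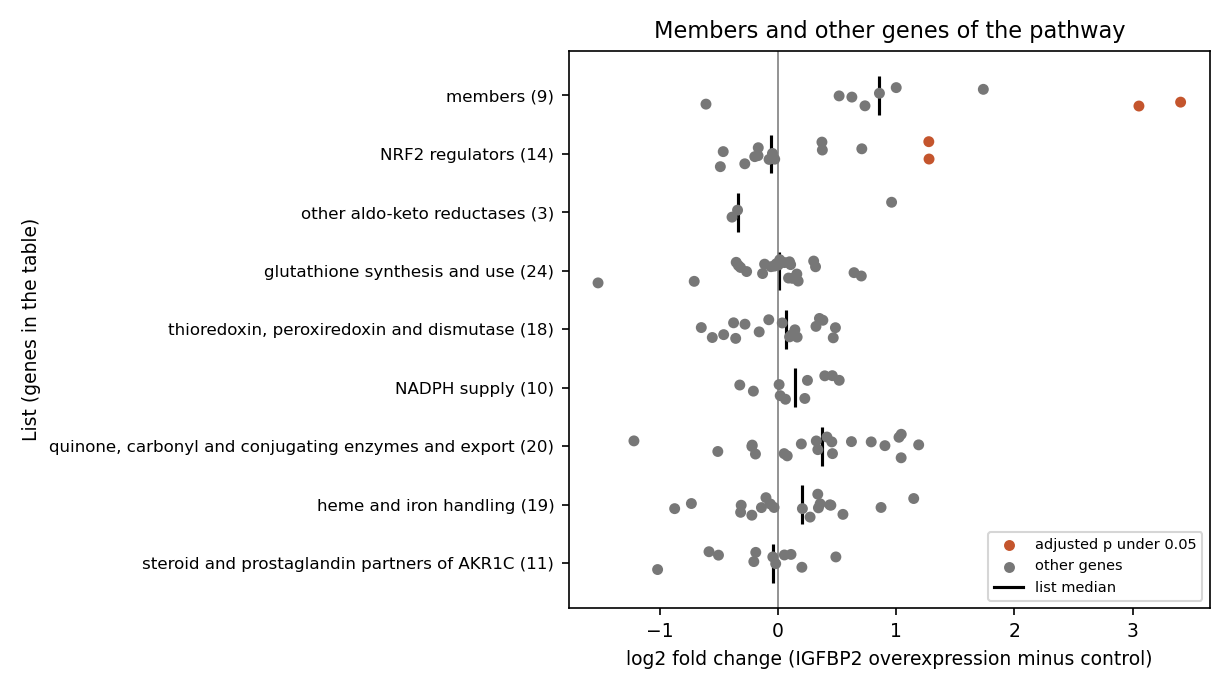
Each point is the log2 fold change of 1 gene, by list, with the number of genes in the table in brackets, a black line at the list median and genes at an adjusted p under 0.05 in orange. The members have a median of 0.86, and the other lists lie around 0, from -0.34 to 0.38, with TRIM16 and OSGIN1 at 1.28 in the regulator list.

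Around the AKR1C genes, GENCODE 44 gave 32 further genes that start within 500 kb of the span from AKR1C1 to AKR1C3, 8 of them protein coding, and 3 of the 32 were in the table. MANCR, a long noncoding RNA, was at 8.44, 0.556 and 4.85 CPM in control and at 17.2, 16.1 and 5.58 CPM in IGFBP2 overexpression replicates 1, 2 and 3 (log2 fold change 1.53, SE 0.63, adjusted p = 0.35, limma). NET1 had a log2 fold change of -0.07 (standard error 0.23) and overlapped between the groups. CALML5, a calmodulin-like protein of keratinocytes, was below the controls in every overexpression library (log2 fold change -0.88, SE 0.22, adjusted p = 0.149, limma). None of the 3 passed the test, and CALML5 passed with a mean-variance trend (adjusted p = 0.0333, limma) and with limma voom (adjusted p = 0.0404). The log2 fold change of MANCR was 0.77 without control replicate 2, its library with the lowest level.

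The genes whose log2 values over the 6 libraries were most like the mean of AKR1C1 and AKR1C2, the AKR1C genes in the table, were BATF3 (Pearson r 0.995), SDCBP2 (0.995), AMOTL1 (0.993), CLU (0.992) and LINC00623 (0.987). These libraries are 2 groups of 3, so any gene that separates the groups scores high, and 183 of 10478 genes, or 1.75%, had an r over 0.9. SDCBP2, a PDZ-domain adaptor, was at 6.66, 11.4 and 9.30 CPM in control and at 28.5, 24.9 and 33.5 CPM in IGFBP2 overexpression replicates 1, 2 and 3 (log2 fold change 1.58, SE 0.23). BATF3, a leucine zipper factor, had a log2 fold change of 1.10 at a low level, from 1.93 ± 0.344 to 5.27 ± 0.565 CPM (n = 3, SD). AMOTL1 had a log2 fold change of only 0.13 (SE 0.17).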

How the data were processed

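Expression was measured by 3′ RNA sequencing in 3 control libraries and 3 libraries of IGFBP2 overexpression MDAMB468 cells. Per the paper, the authors used bbduk for trimming, STAR for alignment to hg38, htseq-count for gene counts (HTSeq 0.9.1 in the submitters' processing notes) and edgeR for normalization, and a mean of over 5 CPM in either condition was required of each gene. The deposited values are log2(CPM + 1). The paper names edgeR for its test, which was not run here. At a false discovery rate under 0.05 the paper reports many more genes as changed, and more of them lower than higher. The counts of called genes given here therefore belong to the limma fit and are not those of the paper. The deposited log2 values were tested directly, and reads recovered from them entered only an alternative.

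limma 3.58.1 (R 4.3.3; lmFit and eBayes, no trend) was fitted to all 10487 genes with group as the only term, adjusted by Benjamini-Hochberg and called at 0.05. Each p-value sets the difference between the groups against the spread among replicates, pooled over both groups of 3. The eBayes step moderates that spread with the spread of all genes. Whole reads were computed back from the spacing of low values (100% whole within 0.01) and used for limma voom and other scalings. These are reads on listed genes, not the full depth. Tables and sequences were handled in Python 3.11.15. Symbols came from GENCODE 44, with 10462 identifiers matched, and sequences from RefSeq and hg38.

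The members and all gene lists were chosen with earlier results of these data known. Named genes are the members, IGFBP2, NFE2L2, KEAP1, the called genes and the 2 smallest p-values of each other list, genes starting within 500 kb of the AKR1C genes, and the 5 genes most correlated with them. Alternatives covered scaling, variance model, pseudocount, a low-value filter, leaving out single libraries and a replicate block. They were run for the named genes that are no members only after the data were seen.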

Additional observations from a re-analysis of the deposited data

How the results depend on the processing

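The count of members called, a description because the members were chosen on these values, was 2 of 9 under the scalings, the lower pseudocount, the filter on low values and the replicate block, 3 with a pseudocount of 5 (HMOX1 added) and 4 with a mean-variance trend or with limma voom (GCLM and HMOX1 added). With each library left out in turn it was 1 to 2. The number called among all genes changed with the setting as well. It was 66 with all libraries in the limma fit, 160 with the trend and 141 with limma voom. With pseudocounts of 0.1 and 5 it was 37 and 129, and with single libraries left out it was 12 to 79. The number of other pathway genes called was 2 of 119, 4 with the trend or with limma voom, 1 with a pseudocount of 0.1 and 3 with a pseudocount of 5. With each library left out it was 0 to 2: it was 2 without control replicate 2 and 0 in each of the other 5 fits, in which 15 to 19 of the 119 had an unadjusted p under 0.05. The cause of these differences was not tested.

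With the replicate number as a block, 2 members and 1 other pathway gene (TRIM16) were called. The deviations of same-numbered libraries from their group means had correlations of 0.172, -0.064 and 0.0842 for numbers 1, 2 and 3. These values do not show whether same-numbered libraries were handled together, which was not tested.

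No member's log2 fold change changed sign under any alternative run. Of the other named genes, NET1 did: it ranged from -0.27 to 0.039 with single libraries left out, with 0.021 without control replicate 1, 0.039 without control replicate 2 and 0.012 without overexpression replicate 3. Other scalings moved the median of all genes by at most 0.02. Genes at a few CPM, such as AKR1C1 in control replicate 1 with 18 reads, are limited by counting error.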
